A study of Mus musculus with 6 samples.

Results

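Imprinted genes are expressed from the copy inherited from a single parent, and many of those that act on growth form a network around the zinc finger factor Plagl1 (also called Zac1). The levels of 9 such genes, Cdkn1c, Grb10, Peg3, H19, Mest, Plagl1, Ndn, Meg3 and Dlk1, were followed here in the choroid plexus (ChP), the epithelial tissue of the brain ventricles that makes cerebrospinal fluid. They were taken by symbol from a table of 24354 gene names, in which all 9 have a row. The mRNA was isolated by TRAP (translating ribosome affinity purification), in which ribosomes carrying the tagged subunit EGFP:L10a are pulled down with the RNA on them. All 6 samples carried the same genotype, FoxJ1:cre x bacTRAP (EGFP:L10a), so that the tag was switched on in cells with a history of Foxj1 promoter activity, and no sample without the tag was among them. The groups were 3 adult samples, labelled as collected at 60 days, and 3 samples from embryonic day 16.5 (E16.5). The methods describe each sample as lateral ventricle ChP pooled from several animals or litters, and the record of the series itself speaks of 3 mice at each age, so the number of animals behind a replicate is not settled. Whether the p-values below reflect the spread between animals or only between these samples is therefore not known.

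As background, several of these genes restrain growth and others promote it. Cdkn1c (p57Kip2) inhibits cyclin-dependent kinases, Grb10 is an adaptor that binds and damps the insulin and IGF1 receptors, and H19 and Meg3 are long noncoding RNAs. Peg3 and Plagl1 encode zinc finger proteins, Mest an enzyme of the alpha/beta hydrolase fold, Ndn (necdin) a MAGE family protein, and Dlk1 a transmembrane relative of the Notch ligands. In the mouse, Cdkn1c, H19 and Meg3 are expressed from the maternal copy, as is Grb10 in most tissues other than neurons, and Peg3, Mest, Plagl1, Ndn and Dlk1 from the paternal copy. FPKM, read numbers scaled to transcript length and library size, sum both copies, so nothing about allelic expression was measured. Most of the 9 are known to be high in fetal tissues and to decline after birth.

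Grb10 and Mest were lower in adult than in E16.5 ChP, and H19 was called in the same direction with all adult samples listed at 0, whereas the level of Plagl1 differed little between the ages. Between these lay Cdkn1c and Peg3, which were abundant at both ages and whose changes lay near the median of all genes. Ndn and Meg3 varied widely between samples and were not called, and Dlk1 was listed at 0 in every sample. Of the 9 genes, 8 averaged more than 1 FPKM across all samples and entered the limma test on log2(FPKM + 1) among 11601 genes. With p adjusted by the Benjamini-Hochberg method over all genes tested, 3 of the 8 passed 0.05, all higher at E16.5, while 8.83% of all genes tested were called in that direction. None of the 8 was called higher in adult by limma, and 4 of the 8 had an unadjusted p under 0.05, as did 31.3% of all genes tested. H19 passed the filter on low values only through its E16.5 samples, so that it could hardly fail to differ. Its place among the 3 called is therefore no support. Log2 changes are adult minus E16.5 throughout.

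**Figure D1:**
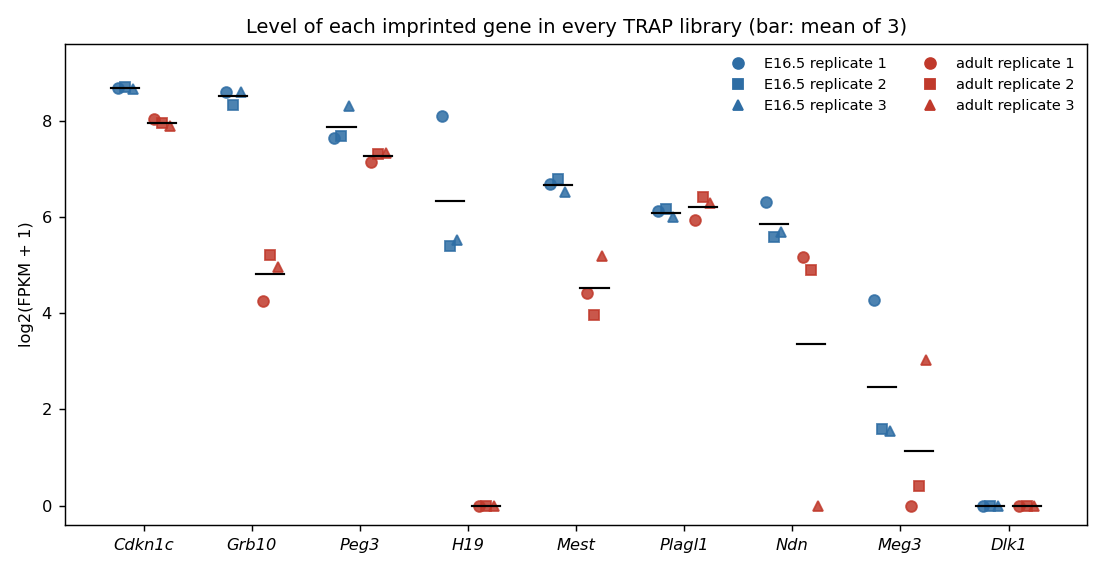
Level of the 9 imprinted genes as log2(FPKM + 1) on the vertical axis, with genes along the horizontal axis, E16.5 libraries in blue, adult libraries in red, a symbol per replicate and a bar at the mean of 3. The ages separate widely for Grb10 and Mest, all adult values of H19 lie at 0, and those of Plagl1 overlap the E16.5 values.

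Sequences of 250 bases before annotated start sites (RefSeq, GRCm38.p6) are shown for the members whose levels differ most in their course, namely Grb10, which fell most among members above 0 at both ages, Mest, which fell less, Plagl1, which was nearly level, and Peg3, the single member with a Plagl1 motif in these windows. CpG dinucleotides, which can carry DNA methylation, are in capitals in the first 3 sequences.
Grb10, chr11:12037421-12037670, minus strand: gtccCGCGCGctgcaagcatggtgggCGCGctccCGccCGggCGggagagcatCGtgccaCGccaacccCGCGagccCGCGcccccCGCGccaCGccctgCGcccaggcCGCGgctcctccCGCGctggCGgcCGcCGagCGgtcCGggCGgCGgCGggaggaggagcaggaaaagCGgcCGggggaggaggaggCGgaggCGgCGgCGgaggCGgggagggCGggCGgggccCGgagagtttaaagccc
Mest, chr6:30737800-30738049, plus strand: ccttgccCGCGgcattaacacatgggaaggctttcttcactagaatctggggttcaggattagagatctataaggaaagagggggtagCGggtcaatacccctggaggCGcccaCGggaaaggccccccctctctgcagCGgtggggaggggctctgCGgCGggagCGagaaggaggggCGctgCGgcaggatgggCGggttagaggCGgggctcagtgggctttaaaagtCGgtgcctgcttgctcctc
Plagl1, chr10:13090582-13090831, plus strand: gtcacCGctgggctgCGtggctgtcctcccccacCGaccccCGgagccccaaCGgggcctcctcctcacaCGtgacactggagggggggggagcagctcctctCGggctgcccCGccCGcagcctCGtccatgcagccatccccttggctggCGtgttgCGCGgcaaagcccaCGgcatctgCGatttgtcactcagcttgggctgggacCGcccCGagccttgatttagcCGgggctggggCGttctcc
Peg3, chr7:6730420-6730669, minus strand, with the motif GGGGCCCC in capitals: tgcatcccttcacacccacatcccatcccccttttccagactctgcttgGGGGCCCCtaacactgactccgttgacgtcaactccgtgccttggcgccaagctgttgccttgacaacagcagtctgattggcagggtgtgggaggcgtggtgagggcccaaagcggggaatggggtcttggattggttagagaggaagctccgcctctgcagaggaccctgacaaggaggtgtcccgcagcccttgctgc
The Grb10 window shown holds 40 CpG, more than 98.7% of 32851 such windows, whose median is 6. Another Grb10 window, not shown, holds 8, more than 57% of windows. The windows shown for Plagl1 and Mest hold 19 and 14 CpG, more than 80.3% and 70.6% of windows. Another Mest window, not shown, holds 7, more than 53.7% of windows. The motif GGGGCCCC, which Plagl1 protein is known to bind and which reads the same on both strands, occurred in 1 of 11 windows of the 7 members that have one, and in 0.889% of all windows. Methylation and binding were not measured.

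H19 and Mest are also the host transcripts of microRNAs, whose mature sequences (RefSeq, GRCm38.p6) are given because these are the known small RNA products of transcripts called lower in adult. Capitals mark the seed, bases 2 to 8.
mmu-miR-675-5p, in an exon of H19, chr7:142577112-142577133, minus strand: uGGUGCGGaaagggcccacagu
mmu-miR-675-3p, in an exon of H19, chr7:142577078-142577099, minus strand: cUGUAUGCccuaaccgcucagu
mmu-miR-335-5p, in an intron of Mest, chr6:30741314-30741336, plus strand: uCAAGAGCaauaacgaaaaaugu
mmu-miR-335-3p, in an intron of Mest, chr6:30741354-30741375, plus strand: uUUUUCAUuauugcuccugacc
The 4 seeds differ from each other. The rows of Mir675 and Mir335 were listed at 0 in all 6 samples. These libraries were not made for small RNAs.

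The libraries differed in depth and composition between the ages. FPKM tables give no read totals, but low values lay near whole multiples of the FPKM of a single read, which over a kilobase was 0.113 to 0.324 in the adult and 0.0638 to 0.0808 in the E16.5 libraries. By these steps the E16.5 libraries were 4.02 to 5.08 times as deep as adult replicate 3, the shallowest, with the remaining adult libraries at 1.26 and 2.86 times that depth. The row of Mir6236, a microRNA gene by its name, held 32.7% to 51.7% of the summed FPKM in adult and 13.3% to 15% at E16.5. FPKM are scaled to length, so these are not shares of reads. Over all genes tested, the log2 change had a median of -0.86, so changes are also given relative to it. An FPKM of exactly 0 need not mean absence: Rps27a, a ribosomal protein gene, was listed at 0 in all 3 adult samples.

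Order of levels. FPKM are per length, so genes can be ranked within an age. At E16.5, Cdkn1c (412 ± 8.54 FPKM, SD, n = 3 samples here and below) stood above Grb10 (364 ± 37.7) and Peg3 (240 ± 66.9), with no overlap between these 3. H19 (119 ± 132) overlapped Peg3, Mest (101 ± 9.55), Plagl1 and Ndn, and its rank rested on replicate 1 (272 FPKM). In replicates 2 and 3 (41.3 and 44.7 FPKM) it lay below every E16.5 value of Mest, Plagl1 and Ndn. Plagl1 (67.5 ± 4.15) overlapped Ndn (58.5 ± 17.2), and Meg3 (7.41 ± 9.45) came last of the genes above 0. In adult the order was Cdkn1c (249 ± 12.3 FPKM), Peg3 (153 ± 10.5) and Plagl1 (74.2 ± 12.2), again without overlap between neighbours. Grb10 (28.2 ± 9.23), Mest (23.5 ± 10.9) and Ndn (21.3 ± 18.7) then overlapped one another, and Meg3 (2.50 ± 4.06) overlapped Ndn. Grb10 thus moved from rank 2 to rank 4 while Cdkn1c held the top rank at both ages.

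Among the regulators of proliferation and growth factor signalling, Grb10 (chromosome 11, 11930508 to 12038683, 9 annotated transcripts) had 385, 321 and 387 FPKM at E16.5 and 18.1, 36.2 and 30.3 FPKM in adult. Every adult sample lay far below every E16.5 sample. The mean FPKM was 12.9 times as high at E16.5. The log2 change was -3.69 (SE 0.33, limma adjusted p = 0.00231), which is -2.84 relative to the median of all genes, and 3.42% of the genes tested had a lower change. Grb10 was called in all 14 alternatives, with changes from -4.51 to -3.24 and adjusted p from 0.00126 to 0.0416. Of the 3 called members, only Grb10 was still called whichever E16.5 sample was left out. By the read steps at its longest transcript, its adult values stood on roughly 342 to 1550 reads per library.

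Cdkn1c (chromosome 7, 143458339 to 143461050) was the most abundant member at both ages. Its FPKM were 413, 419 and 403 at E16.5 and 261, 248 and 237 in adult. The groups did not overlap and the replicates of each age lay close together, but the difference was small. Its log2 change of -0.73 (SE 0.21, limma adjusted p = 0.0641, unadjusted p = 0.00895) did not pass, and it was 0.13 above the median of all genes. The adjusted p was 0.0113 when all samples were brought to an equal FPKM total (log2 change -1.55), 0.0476 at a pseudocount of 0.1 and 0.688 after quantile normalization (log2 change -0.18). An unnamed gene model on the opposite strand, Gm44732, covers 30.7% of its exonic bases, and the strand setting of the FPKM calculation is not given in the sources used here.

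Among the zinc finger genes, Plagl1 (chromosome 10, 13060504 to 13131694) had 68.5, 71.0 and 62.9 FPKM at E16.5 and 60.6, 84.4 and 77.5 FPKM in adult. The groups overlapped. Its log2 change was 0.12 (SE 0.28, limma adjusted p = 0.786), or 0.98 above the median of all genes, and 75.5% of the genes tested had a lower change. The sign turned with equal FPKM totals (-0.69), while the change relative to the median lay between 0.70 and 1.04 over the 4 scalings. Peg3 (chromosome 7, 6703892 to 6730431) had 198, 206 and 318 FPKM at E16.5 and 141, 158 and 160 FPKM in adult. All adult values were below all E16.5 values, yet E16.5 replicate 3 stood well above the other two. Its log2 change of -0.62 (SE 0.27, limma adjusted p = 0.169) was 0.24 above the median of all genes, and it passed the test only with equal FPKM totals (-1.45, adjusted p = 0.0291).

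Ratios within a library do not depend on how the libraries were scaled. Grb10 stood at 5.62, 4.52 and 6.16 times Plagl1 in the E16.5 libraries and at 0.299, 0.429 and 0.390 times Plagl1 in the adult libraries. Mest stood at 1.49, 1.56 and 1.46 times Plagl1 at E16.5 and at 0.336, 0.172 and 0.461 times in adult. In both ratios the ages were far apart. Cdkn1c over Plagl1 differed less, at 6.12 ± 0.256 at E16.5 and 3.43 ± 0.763 in adult (SD, n = 3 each). Peg3 over Cdkn1c was 0.586 ± 0.176 at E16.5 and 0.617 ± 0.0701 in adult, with overlapping values, so these 2 abundant members kept similar proportions. Grb10 was 10.5 ± 0.701 times as high as Igf1r, the IGF1 receptor gene, at E16.5 and 0.585 ± 0.196 times as high in adult.

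**Figure D2:**
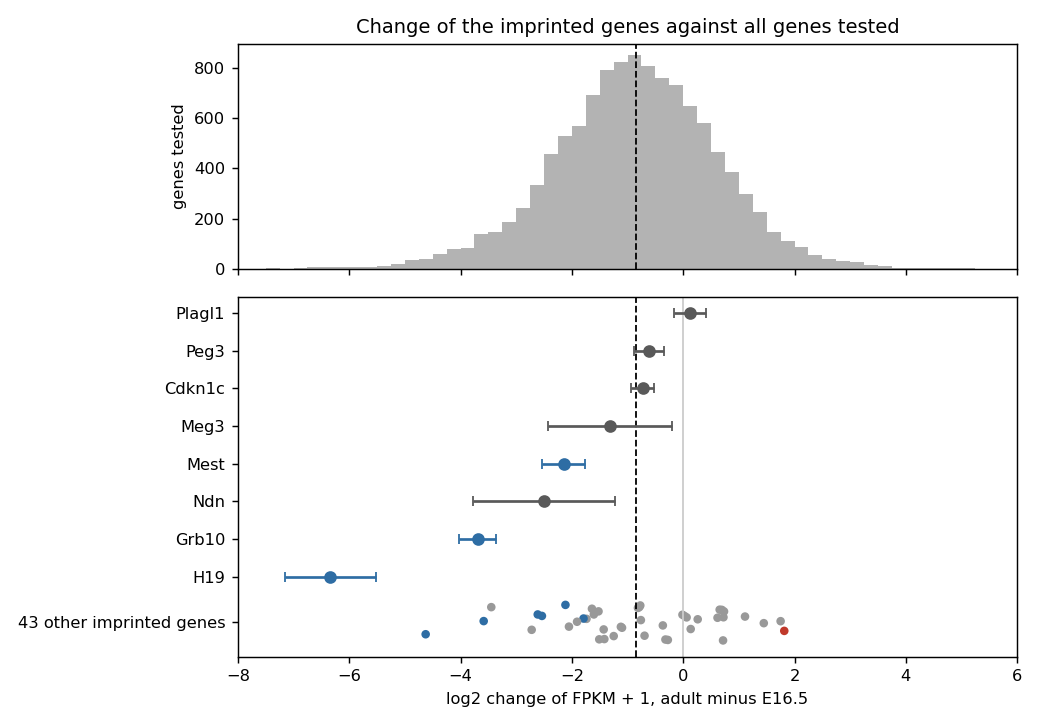
Upper panel, number of genes tested by log2 change of FPKM + 1, adult minus E16.5, with a dashed line at the median of -0.86. Lower panel, the change of each of the 8 tested members with its limma standard error and, in the bottom row, 43 other imprinted genes as single points, in blue where called higher at E16.5, red where called higher in adult and grey otherwise. Grb10 and H19 lie far left of the median, and Plagl1 lies right of it.

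Mest (chromosome 6, 30723547 to 30748465) had 102, 111 and 91.5 FPKM at E16.5 and 20.4, 14.5 and 35.7 FPKM in adult. The groups were clearly apart, and the adult samples varied more in proportion. The log2 change was -2.15 (SE 0.39, limma adjusted p = 0.0203), which is -1.29 relative to the median of all genes. Of 14 alternatives, 11 called Mest. Dropping E16.5 replicate 1, 2 or 3 ended the call (adjusted p = 0.0861, 0.0874 and 0.0727), although its change stayed between -2.22 and -2.09. Copg2, a coatomer subunit gene that runs tail to tail with Mest, shares 912 exonic bases with it on the opposite strand, or 23.1% of the exonic bases of Mest, and its FPKM fell as well. Reads of the pair in these bases cannot be told apart where strand was not used.

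H19 (chromosome 7, 142575529 to 142578143) had 272, 41.3 and 44.7 FPKM at E16.5 and was listed at 0 in all 3 adult samples. E16.5 replicate 1 stood far above the other E16.5 samples. At the length of its longest transcript, 3 reads would give 0.163 to 0.466 FPKM in the adult libraries, so the E16.5 level lay well above what a few reads give. Since Rps27a was also listed at 0 in adult, these zeros do not by themselves show that H19 RNA was lower, and no fold change is given against them. Limma gave an adjusted p of 0.00705, and leaving out E16.5 replicate 1, 2 or 3 gave 0.0503, 0.0559 and 0.0517, so the call was lost each time. Meg3, the other noncoding RNA (chromosome 12, 109541001 to 109571726), had 18.3, 2.0 and 1.92 FPKM at E16.5 and 0, 0.320 and 7.19 FPKM in adult. The groups overlapped, since adult replicate 3 lay above E16.5 replicates 2 and 3. Its log2 change of -1.32 (SE 1.11, limma adjusted p = 0.437) was -0.42 without E16.5 replicate 1 (adjusted p = 0.833) and -2.27 without adult replicate 3 (adjusted p = 0.164).

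Ndn (chromosome 7, 62346569 to 62350262, a single annotated transcript) had 78.3, 46.9 and 50.3 FPKM at E16.5 and 35.1, 29.0 and 0 FPKM in adult. All adult values were below all E16.5 values, but adult replicate 3 stood apart at 0. By the read steps, adult replicates 1 and 2 held roughly 476 and 892 reads of Ndn. In adult replicate 3, 3 reads would give 0.278 FPKM. Of 2198 genes above 20 FPKM in adult replicates 1 and 2, 92 (4.19%) were listed at 0 in adult replicate 3. The log2 change of Ndn was -2.50 (SE 1.28, limma adjusted p = 0.221) with all samples and -0.82 (SE 0.34, adjusted p = 0.144) without adult replicate 3. Dlk1 (chromosome 12, 109452823 to 109463336) was listed at 0 in all 6 samples, as were 9460 genes (38.8% of the table), and was not tested.

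Counted without overlap between the ages, 6 of the 8 tested members (Cdkn1c, Grb10, H19, Mest, Ndn and Peg3) had every adult sample below every E16.5 sample, where 31.0% of all genes tested did. None of the 8 had every adult sample above, where 7.39% did, and lack of overlap in either direction was found for 38.4% of all genes. With 3 samples against 3, the two-sided exact permutation test, applied to each of these 6, gave 0.1, the smallest p it allows. The median log2 change of the 8 was -1.74, against -0.86 for all genes tested. H19, with every adult value at 0, passed the filter only through E16.5. Its place among the 6 and in this median is therefore no support.

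**Figure D3:**
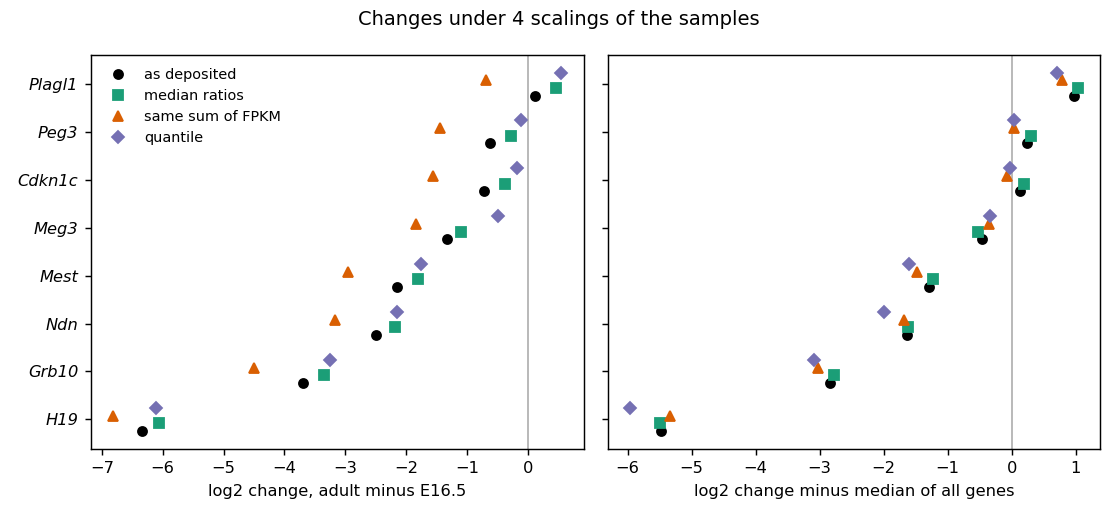
Log2 change of each tested member (left) and the same change minus the median of all genes tested (right), adult minus E16.5, with FPKM as deposited and under 3 other scalings of the samples. On the left, Plagl1 runs from -0.69 to 0.55 with the scaling, while on the right Grb10 stays between -3.09 and -2.78 and Plagl1 between 0.70 and 1.04.

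The scaling moved all changes together. The median over all genes was -0.58 after scaling by median ratios, -1.48 with equal FPKM totals and -0.15 after quantile normalization, and the share of calls that were higher in adult was 34.5%, 3.54% and 50.9%, against 19.4% with FPKM as deposited. Grb10 and Mest were called lower in adult under each of these, as was H19, whose adult values were all 0. Relative to the median, Mest lay between -1.61 and -1.24 over the 4 scalings. Against adult values of 0, the size of the H19 change depends on the pseudocount and is not interpreted. Cdkn1c and Peg3 stayed within 0.30 of the median. Bulk profiles of this kind cannot tell fewer cells that express a gene from less RNA per cell. Because only RNA pulled down with ribosomes was read, they also cannot tell less RNA from less RNA on ribosomes.

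E16.5 replicate 1 differed from the other E16.5 samples in a few members. Its H19 was 6.33 times and its Meg3 9.35 times the mean of replicates 2 and 3, its Ndn 1.61 times, and its Peg3 0.756 times, while Grb10, Cdkn1c, Mest and Plagl1 were at 1.01 to 1.09 times. Of 10921 genes with a mean above 1 FPKM in replicates 2 and 3, 0.687% had a ratio above 6. The same library was high in neuronal genes: Tubb3, a neuronal tubulin, had 36.2 FPKM in replicate 1 against 0.623 and 0.134 in replicates 2 and 3, and Stmn2 had 25.3 FPKM against 0 in each. Hbb-bs, an adult beta globin gene, had 299 FPKM against 3.90 and 86.4. Hba-a2, an alpha globin gene, was instead highest in replicate 2 (49.0 FPKM against 20.4 and 20.2).

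**Figure D4:**
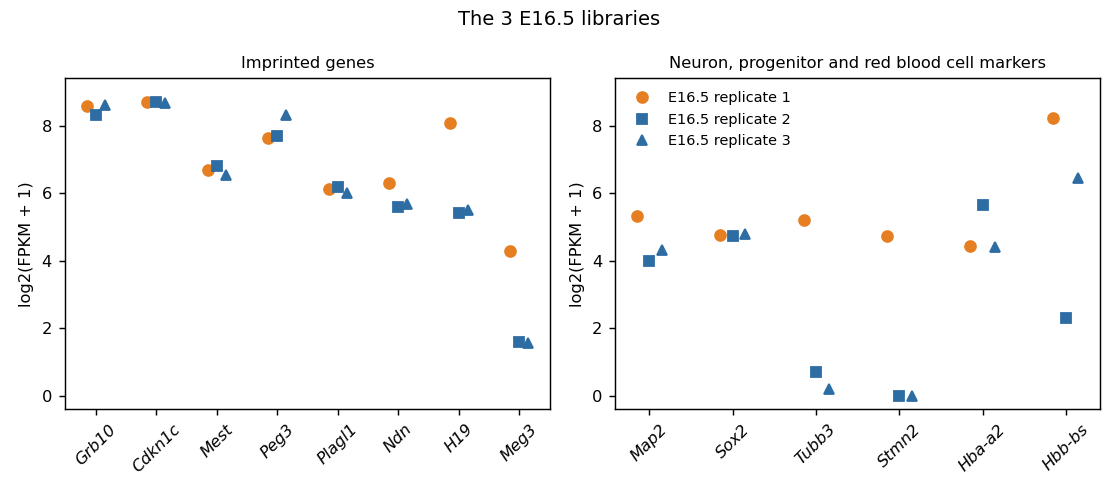
Values of the 3 E16.5 libraries as log2(FPKM + 1) for the 8 tested members (left) and for markers of neurons, progenitors and red blood cells (right). Replicate 1, in orange, stands above the others for H19 and Meg3 on the left and for Tubb3, Stmn2 and Hbb-bs on the right, and lies among them for Grb10, Cdkn1c, Mest and Plagl1.

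The summed levels of mesenchymal, neuronal and progenitor, and red blood cell markers were higher in every E16.5 sample than in any adult sample, those of endothelial, macrophage and cell cycle markers overlapped between the ages, and the part of these cells in the members' changes was not tested. The summed FPKM of 14 mesenchymal genes was 278 to 427 at E16.5, of which Vim held 141 to 199, and 42.6 to 59.9 in adult. Of 10 tested genes, 3 were called higher at E16.5 (Vim, Fbn1 and Pdgfra). The share of all genes tested called in that direction was 8.83%, which also applies to the neuronal and red blood cell counts below. Of the collagens, Col1a1 was at 0.0421 to 8.26 FPKM at E16.5 and at 0 to 0.476 in adult, Col3a1 at 1.31 to 5.37 and at 0 to 0.0420. Col1a2 overlapped between the ages, at 8.69 to 12.6 and 2.53 to 15.99 FPKM, and Lum, Thy1, Dpt and Mfap5 were at or near 0 in all samples. Pdgfrb and Fn1 overlapped as well, and Twist1 was above 0 only in E16.5 replicate 2. The sum over 14 neuronal and progenitor genes was 171, 48.0 and 50.1 FPKM at E16.5 and 4.51 to 14.4 in adult, with 1 of 8 called (Map2). Neurod2 and Eomes were at 0 in all 6 samples, and Rbfox3 and Neurod1 were above 0 only in E16.5 replicate 1. The red blood cell sum over 11 genes was 56.7 to 388 at E16.5 and 0 to 6.49 in adult, with 2 of 5 called (Hba-a2 and Hbb-bs). All globin genes of the list were at 0 in adult, so the called ones passed the filter only through E16.5. Endothelial sums were 12.7 to 40.9 at E16.5 and 0.489 to 19 in adult, macrophage sums 0.584 to 8.48 and 0.0695 to 7.35, and cell cycle sums 37.3 to 74.9 and 9.08 to 49.8. By limma 0 of 2, 0 of 3 and 1 of 7 genes were called in these lists, with 1, 0 and 4 at an unadjusted p under 0.05. Among all genes tested, 10.9% were called in either direction and 31.3% had such an unadjusted p. The called cell cycle gene was Top2a, higher at E16.5 and listed at 0 in adult, so that it passed the filter only through E16.5.
All ChP epithelial markers of the list but Ttr were above 0 in all 6 samples, among them Enpp2, Clic6, Folr1, Kl and Kcnj13. Their levels differed in part: Kl had 6.03 to 8.94 FPKM at E16.5 and 503 to 628 in adult, while Clic6 overlapped between the ages. Ttr was listed at 0 FPKM in all E16.5 samples and had 20922 to 31302 FPKM in adult. As with Rps27a in adult, a listed 0 does not by itself show that Ttr RNA was absent. Of the 12 epithelial markers, 4 passed with the adult level above and 3 with the E16.5 level above, where 2.12% and 8.83% of all genes tested did. Ttr passed the filter only through its adult samples, so that its place among the 4 is no support. Among the 3 was Foxj1 itself (187 ± 28.3 FPKM at E16.5 and 48.7 ± 12.5 in adult, SD, n = 3 each; log2 change -1.93, limma adjusted p = 0.0127).

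Imprinted genes lie in clusters, and the neighbours of the members are given here with them. Of 73 other imprinted genes listed from general knowledge, 70 are in the table and 43 were tested. By limma 6 of the 43 were called higher at E16.5 and 1 higher in adult, where 8.83% and 2.12% of all genes tested were. Their median log2 change was -0.79, within 0.07 of the median of all genes. The 6 were Nnat (neuronatin), Sgce (epsilon sarcoglycan) and its neighbour Peg10 (derived from a retrotransposon), Commd1, Copg2 and Nap1l4 (a nucleosome assembly protein). Nnat had 59.4, 30.9 and 49.9 FPKM at E16.5 and 0, 5.50 and 0 in adult (log2 change -4.63, SE 0.84, adjusted p = 0.0204). Peg10 had 25.1 ± 2.53 FPKM at E16.5 and 3.94 ± 3.41 in adult (log2 change -2.61, adjusted p = 0.0389), and Sgce 16 ± 11.1 and 0.151 ± 0.261 (log2 change -3.58, adjusted p = 0.0359; SD, n = 3 each). Sgce passed the filter only through E16.5, so that its place among the 6 is no support. Commd1 had 191 ± 40.9 FPKM at E16.5 and 43.6 ± 43.1 in adult (log2 change -2.54, adjusted p = 0.0476; SD, n = 3 each). All 6 kept their direction under the 3 other scalings, but none of them was called by limma once any single E16.5 sample was left out.

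In the cluster of distal chromosome 7, H19 was listed at 0 in adult while Igf2, the growth factor gene whose nearer end lies 72.6 kb away, stayed high. Igf2 had 518, 596 and 487 FPKM at E16.5 and 794, 708 and 965 FPKM in adult. Every adult value lay above every E16.5 value, but the log2 change of 0.62 (SE 0.23, limma adjusted p = 0.116) did not pass. It passed after scaling by median ratios (0.96, adjusted p = 0.0443) and was -0.21 with equal FPKM totals. A readthrough gene model on the same strand, Gm49394, covers most of the 64.5% of exonic bases of Igf2 that other genes share. Igf2r, whose product binds IGF2 and carries it to lysosomes, lies on chromosome 17. It had 28.5, 29.5 and 65.7 FPKM at E16.5 and 143, 131 and 136 FPKM in adult (log2 change 1.81, SE 0.38, limma adjusted p = 0.0295). It was the 1 imprinted gene called higher in adult, and was called in 8 of 14 alternatives.
Near Cdkn1c, Nap1l4 at 52.5 kb fell from 144 ± 6.25 FPKM at E16.5 to 41.8 ± 10.7 in adult (SD, n = 3 each; log2 change -1.79, SE 0.30, limma adjusted p = 0.0150). Cd81, a tetraspanin gene at 390.4 kb, had higher adult values (log2 change 1.11, adjusted p = 0.0905), and Phlda2 at 40.5 kb was listed at 0 throughout.
Next to Mest, Copg2 had 51.4, 43.5 and 55.1 FPKM at E16.5 and 9.26, 8.11 and 16.2 FPKM in adult (log2 change -2.12, SE 0.41, limma adjusted p = 0.0239). Its change was about as large as that of Mest, with which it shares exonic bases. Klf14, farther along, was listed at 0 in all samples.

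Around Peg3, Zim1 and Usp29 had 0.421 to 5.48 and 1.26 to 4.14 FPKM at E16.5 and 0 in every adult sample (adjusted p = 0.174 and 0.107), and Zim2 was at 0 throughout. Close to Ndn, Magel2, Mkrn3 and Peg12 reached at most 5.40 FPKM in any sample, whereas Snrpn and Ube3a, farther off in the same imprinted domain, had 18.1 to 55.6 and 39.5 to 62.5 FPKM over the 6 samples, with overlap between the ages. On chromosome 12, Rian, a noncoding RNA 32.2 kb from Meg3, had 4.58, 1.80 and 0.221 FPKM at E16.5 and 0 in adult (adjusted p = 0.192). Like Meg3 it was highest in E16.5 replicate 1. Mirg, Rtl1, Dio3 and Begain in the same cluster had mean values too low to be tested. Beside Grb10, Cobl had a log2 change of -0.69 (adjusted p = 0.291), against -3.69 for Grb10.

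Genes around the products of the members were taken from 4 lists, and 11 of the 53 tested were called by limma, 8 higher at E16.5 and 3 higher in adult, where 10.9% of all genes tested were called, 8.83% and 2.12% in these directions. For Dlk1, 0 of 8 Notch pathway genes were called and 1 had an unadjusted p under 0.05, with a median log2 change of 0.32. Notch2 was the most abundant receptor, at 50.3 to 84.6 FPKM at E16.5 and 55.8 to 56.9 in adult. For Grb10, 3 of 17 genes of insulin and IGF1 signalling were called. Akt2, a kinase of this pathway, rose from 11.0 ± 2.76 to 56.9 ± 26.2 FPKM (SD, n = 3 each; log2 change 2.21, adjusted p = 0.0273). Nedd4, a ubiquitin ligase that binds Grb10, fell from 590 ± 91.1 to 260 ± 13.6 FPKM (log2 change -1.17, adjusted p = 0.0234). The receptors of this pathway had higher adult values that did not pass: Insr had 8.12 to 12.1 FPKM at E16.5 and 16.9 to 22.1 in adult, and Igf1r 30.1 to 39.98 and 42.2 to 53.3.
For Cdkn1c, 3 of 16 cell cycle regulators were called. Ccnd1 and Cdk2, a cyclin and a kinase of the entry into S phase, were higher at E16.5 (log2 change -3.15 and -3.09, adjusted p = 0.0410 and 0.0318). With adult means of 0.816 and 0.767 FPKM, both passed the filter only through E16.5. Their place among the 3 and the 11 called is therefore no support. Trp53 had 29.9, 25.6 and 14.3 FPKM at E16.5 and 198, 71.3 and 485 FPKM in adult (log2 change 3.04, adjusted p = 0.0329). Its adult samples differed several-fold among themselves. The other kinase inhibitors of the Cdkn1c family stood lower, Cdkn1a at 60.4 to 61.8 FPKM at E16.5 and 41.7 to 97.7 in adult, and Cdkn1b at 11.0 to 34.5 and 14.8 to 30.4, so Cdkn1c was the highest of the 3 in every sample.
For Plagl1 and Ndn, 5 of 12 related genes were called. Plagl2, a paralogue of Plagl1, fell from 20.2 ± 5.03 to 3.89 ± 1.63 FPKM (SD, n = 3 each; log2 change -2.14, adjusted p = 0.0461). Trim28, a corepressor that guards imprinted marks (log2 change -1.94, adjusted p = 0.0431), and Maged1, a MAGE family relative of Ndn (log2 change -1.04, adjusted p = 0.0477), were also higher at E16.5. Bax, an effector of cell death, had 7.78, 27.6 and 43.3 FPKM at E16.5 and 0 in adult (adjusted p = 0.0167). Like H19, it passed the filter only through E16.5, so that its place among the 5 and the 11 called is no support. Lrp6, a Wnt coreceptor, rose from 29.6 ± 5.45 to 93.0 ± 11.2 FPKM (SD, n = 3 each; log2 change 1.63, adjusted p = 0.0221). All 11 kept their direction under the 3 other scalings, and by limma none was called once any single E16.5 sample was left out.

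Likeness to the members was measured by Pearson's r over the 6 samples with the mean of the 8 tested members, each scaled to an SD of 1 on log2(FPKM + 1). Because the samples form 2 ages, r mainly ranks genes by how cleanly they follow age, and 554 of 11593 other genes had an r above 0.95. The 5 most alike were Sars2, Klhl13, Nek1, Suclg1 and Calm2, with r from 0.993 to 0.997. Klhl13 had 34.4, 26.7 and 25.5 FPKM at E16.5 and 9.603, 12.3 and 11.9 FPKM in adult. Of the 5, Nek1, Suclg1 and Calm2 were called higher at E16.5.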

How the data were processed

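TRAP libraries of 3 adult and 3 E16.5 ChP samples were grouped by their titles. The authors aligned single-end reads to mm10 with STAR (2.4.0 in the submitters' processing notes) and calculated FPKM with Cuffquant of Cufflinks, and the deposited FPKM were used as they stand. Both sexes were used. The annotation given to Cuffquant, sequencing batches and the share of each sex in a pool are not given in the sources used here. Read counts, which the authors compared with DESeq2, were not used here, so limma on FPKM took the place of that test.

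Genes with a mean FPKM above 1 were compared between the ages on log2(FPKM + 1) using limma 3.58.1 (R 4.3.3, intensity trend, no covariates, adjusted p threshold 0.05, Benjamini-Hochberg). A fold on this scale understates the change of low genes. The test was tried on simulated data. The members and the gene lists were chosen with earlier results of these data known. Genes named were all members, Igf2, Igf2r, called genes of the imprinted and related lists, the 5 genes most like the members, and abundant or defining markers. One gene that this rule names is not reported here. Notch2, Insr, Igf1r, Cdkn1a, Cdkn1b, Cd81, Cobl, Snrpn, Ube3a and the genes near the members were added after their values were seen, as were the promoter windows shown and the ratios, of which 12 were computed.

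Positions and overlaps came from GENCODE M21 (GRCm38, the build of mm10), promoters and microRNAs from RefSeq tables of GRCm38.p6, without the bases after the start site. Promoter entries were matched for 7 members, all but Cdkn1c and H19. Read steps came from 35 to 63 low values per library in 2523 single-transcript genes, at the transcript length minus 200 bases, and 65.1% to 82.1% of these values lay within 0.1 of a whole read. Numbers of reads derived from them are approximate for genes with several transcripts and cover counting error only. Alternatives were 3 scalings (median ratios, equal FPKM totals, quantile), a pseudocount of 0.1, no filter or a mean FPKM above 5, no trend, a replicate block, and each sample left out.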

Additional observations from a re-analysis of the deposited data

How the results depend on the processing

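With FPKM as deposited and all samples, 3 members, 7 other imprinted genes and 11 related genes were called by limma. These counts were 5, 13 and 17 with equal FPKM totals, where Cdkn1c and Peg3 joined the members called. Of all 11601 genes tested, that scaling called 3357, against 1270 with FPKM as deposited. After quantile normalization, 4 other imprinted and 5 related genes were called, among 915 calls over all genes. Scaling by median ratios called 7 related genes, among 1008 calls. With no filter on low values, 4 other imprinted genes were called, among 1021 calls in 14894 genes tested. Leaving out single samples, the counts ranged from 1 to 3, from 0 to 7 and from 0 to 16. The low ends came without an E16.5 sample (1 other imprinted gene, Igf2r, was called without replicate 3), and dropping E16.5 replicates 1, 2 and 3 left 57, 43 and 112 calls among all genes, against 1270 with all samples and 687 to 1923 without an adult sample. Without an E16.5 replicate, unadjusted p under 0.05 by limma was found for 4 members, 12 other imprinted genes and 17 to 19 related genes. Without E16.5 replicates 1, 2 and 3, such a p was also found for 2514 of 11357, 2535 of 11459 and 2649 of 11506 genes tested. Related genes called were 5 without adult replicate 1. With equal FPKM totals the changes of Plagl1 and Igf2 reversed to -0.69 and -0.21. The cause was not tested.

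A replicate block left 3 members, 2 other imprinted and 2 related genes called, and Igf2r lost its call (adjusted p = 0.0505). The block cut the calls over all genes to 564. Same-numbered samples of the 2 ages did not deviate together (r of deviations over genes 0.000895 to 0.0439), so the numbers are not shown to pair the samples. Values of 0 in the shallow adult libraries limit what can be said of low genes such as Meg3 and Rian.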
